A study of Mus musculus with 15 samples.

Results

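The 9 genes described here encode the signalling chains of the T cell receptor complex (Cd3d, Cd3e, Cd3g and Cd247), both chains of the CD8 co-receptor (Cd8a and Cd8b1), the kinases Lck and Zap70, and the adaptor Lat. They were taken from the tables by symbol. All 9 were found among the 17493 genes of the count tables, and all of them were among the 10831 genes that passed the low-count filter and were tested.

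Transcripts were counted in CD8+ OT-I T lymphocytes from spleen and lymph nodes of female OT-1 mice, strain C57BL/6-Tg(TcraTcrb)1100Mjb/Crl, whose age the labels do not give. Every group carries the OT-I transgenes, which fix the antigen receptor to recognise an ovalbumin peptide on MHC class I. The 5 groups have 3 libraries each: an unstimulated group taken at 0 h, and groups stimulated over 8 or 22 h in wells of 50000 T cells. Stimulation used either immunofilaments (IF, at 5 ng/ml) or 20000 dendritic cells grown with Flt-3Ligand and pulsed with SIITFEKL peptide (DC). Immunofilaments are synthetic polymer chains, here carrying peptide-loaded MHC, named pMHC(SIIT), together with the cytokine IL-2. The labels name IL-2 only for the IF groups, so the carrier and the cytokine cannot be told apart in an IF to DC comparison. Cells were sorted as viable, CD8 positive and CD103 negative, and the sort thus selected on the protein made from 2 of the 9 genes. The unstimulated cells are the controls of all 4 stimulated groups. Time in culture and stimulation cannot be told apart, because the unstimulated group was taken at 0 h alone. The labels carry the numbers Don1 to Don3 without saying what they stand for, and nothing says that replicates came from separate animals. The p-values below therefore measure the spread between these libraries, which may be technical.

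The antigen receptor of a T cell binds peptide on MHC through its alpha and beta chains, which have almost no cytoplasmic part. Signalling is carried by CD3 gamma, delta and epsilon and by the zeta chain, whose tails hold tyrosine motifs known as ITAMs. CD8 binds the same MHC molecule and brings the kinase Lck to the receptor, Lck phosphorylates the ITAMs, Zap70 docks on them, and Zap70 then phosphorylates the scaffold Lat. Engaged receptors are taken up from the surface, and the level of these transcripts is one of several inputs to how much receptor a cell rebuilds.

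Against unstimulated cells Cd3e, Cd8b1 and Lck fell in all 4 stimulated groups, Cd3g and Cd8a in 3 of them, Lat in 2 and Cd3d in 1, and none of the 9 was called higher in any. Cd8b1 fell by 60.15% with IF at 8 h, and Cd3e fell by 62.3% with DC at 22 h. Cd247 was called in none, and Zap70 was the only member with a positive estimate in any of them (0.24 ± 0.17, SE, IF at 22 h, adjusted p = 0.48). IF and DC differed in 2 members, Cd3e and Cd3g, which were higher with IF at 22 h, where 2.43% of all genes differed. All adjusted p-values are from edgeR's quasi-likelihood test with Benjamini-Hochberg adjustment over all tested genes, and a gene is called below 0.05. Values are CPM, counts scaled to a common library total after TMM scaling, and errors are SE for fold changes and SD over 3 libraries for levels. In bulk RNA, fewer cells of a type and less RNA per cell cannot be told apart.

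Library totals ran from 2892874 to 19806730 counts, and a member's count in 1 library from 253 to 24426. Because reads need not be independent molecules, these counts do not give the size of the counting error. The 9 members took 0.433% to 0.820% of a library's counts. By the sort, the cells should be CD8 T cells. Of the 4 marker genes Cd3e, Cd8a, Cd8b1 and Thy1, 3 are among the 9 genes described here. Their sum was 6149 to 6818 CPM in unstimulated cells, 2610 to 2845 with IF at 8 h, 2793 to 3092 with DC at 8 h, 3271 to 3811 with IF at 22 h and 3028 to 3650 with DC at 22 h. Thy1, the other gene of the list, read 2119 to 2302 CPM in unstimulated cells, 699.8 to 1054 at 8 h and 974.7 to 1317 at 22 h, so it too was lower in every stimulated library. Cd4 had no count outside the IF 22 h group and at most 1.48 CPM there. Markers of dendritic cells, the stimulating cells of 2 groups, were present. Their 16 genes summed to 669.8 to 1551 CPM in unstimulated cells, 216.9 to 476.7 with IF at 8 h, 848.5 to 1238 with DC at 8 h, 376.8 to 631.2 with IF at 22 h and 466.7 to 640 with DC at 22 h. Of the 16, Fscn1 and Ccl22, an actin-bundling protein and a chemokine of mature dendritic cells, are named after their values were seen. Fscn1 read at most 6.75 CPM in unstimulated cells and 0.663 with IF at 8 h, 126 to 168 with DC at 8 h, 5.83 to 43.8 with IF at 22 h and 72.9 to 94.8 with DC at 22 h. Ccl22 read at most 2.98 CPM in unstimulated and IF libraries, 10.3 to 18.2 with DC at 8 h and 6.41 to 11.1 with DC at 22 h, so both genes were higher in every DC library than in every other library. Of the 3 defining markers, Zbtb46 and Flt3 were higher with DC than with IF at 8 h, and Itgax was lower. Zbtb46 had no count in unstimulated or IF 8 h cells and read 1.18 to 2.28 CPM with DC at 8 h and at most 0.684 CPM at 22 h. Flt3 read at most 2.32 CPM in unstimulated and IF 8 h cells, 3.27 to 5.58 with DC at 8 h and 1.78 to 6.94 at 22 h. Itgax was lower with DC, at 3.82 to 6.93 CPM at 8 h and 2.05 to 7.69 at 22 h, than in the other groups, where it read 11.1 to 31.8 CPM. The 7 B cell genes in the tables summed to 6.53 to 49.1 CPM and the 4 CD4 T cell genes to at most 10.3 CPM in every library. The 6 NK cell genes, of which Eomes and Klrk1 can also be made by CD8 T cells, summed to 82.2 to 236.1 CPM in unstimulated and DC libraries and 248.7 to 392.5 CPM in IF libraries. Replicates 2 and 3 of IF 22 h stood apart in mitochondrial ribosomal RNA, at 0.179% and 0.146% of counts against 1.82% to 4.49% in the other 13 libraries.

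The 3 CD3 genes lie side by side on chromosome 9 (GRCm38). Cd3g, on the minus strand, spans chr9:44969572-44980431, Cd3d, on the plus strand, spans chr9:44981769-44987052, and Cd3e, on the minus strand, spans chr9:44998735-45009663. Cd3g and Cd3d point away from each other from start sites 1355 bases apart, and the Cd3e start site is 27825 bases from that of Cd3d. The promoter sequences are shown because these 3 genes are neighbours that all encode CD3 chains. Each runs from 250 bases before the RefSeq start site to 30 bases from it, read 5′ to 3′ along the gene, and capitals mark matches to the motifs named below. The regions are chr9:44980402-44980681 for Cd3g, chr9:44981536-44981815 for Cd3d and chr9:45009582-45009861 for Cd3e.
Cd3g: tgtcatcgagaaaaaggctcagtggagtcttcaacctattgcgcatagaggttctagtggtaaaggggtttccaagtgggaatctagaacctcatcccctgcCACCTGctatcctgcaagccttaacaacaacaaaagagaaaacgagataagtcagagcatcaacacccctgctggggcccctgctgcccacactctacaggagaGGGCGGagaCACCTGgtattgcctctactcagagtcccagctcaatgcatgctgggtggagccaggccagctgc
Cd3d: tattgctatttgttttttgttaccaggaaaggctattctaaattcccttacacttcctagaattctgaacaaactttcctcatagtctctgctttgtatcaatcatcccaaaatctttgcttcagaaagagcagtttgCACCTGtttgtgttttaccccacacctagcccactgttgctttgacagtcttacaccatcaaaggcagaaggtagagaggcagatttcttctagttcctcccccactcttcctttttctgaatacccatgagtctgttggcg
Cd3e: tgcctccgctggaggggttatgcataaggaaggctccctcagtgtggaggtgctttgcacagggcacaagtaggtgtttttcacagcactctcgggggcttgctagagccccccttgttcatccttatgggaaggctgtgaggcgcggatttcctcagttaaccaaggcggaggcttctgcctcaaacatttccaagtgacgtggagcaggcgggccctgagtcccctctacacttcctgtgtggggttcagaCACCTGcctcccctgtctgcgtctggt

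Of 5 motifs searched on both strands, the E-box CAGGTG was present in all 3 windows, each time read as its reverse complement CACCTG. It lay at -148 to -143 and again at -35 to -30 in Cd3g, at -112 to -107 in Cd3d and at 4 to 9 in Cd3e, counted from the start site as 1. Cd3g also held the GC box GGGCGG at -44 to -39. Over the 300-base RefSeq windows of 11 start sites from 8 members, 8 held this E-box (Cd247, Cd3d, Cd3e, Cd3g, Lck and Zap70), against 20.2% of 32851 windows of all genes. The RUNX core TGTGGT was in 3 of the 11 (Lat, Lck and Zap70), against 16.8% of all, and the GC box in 2 (Cd3g and Lck), against 35.7%. The ETS core CCGGAAG and the TATA box TATAAA were in none of the 11, against 8.86% and 13.6% of all. Start sites of 1 gene share sequence, and a match describes letters in a window, not a bound site. Cd8b1 had no entry in the promoter table. Both CD8 genes lie on the plus strand of chromosome 6, Cd8b1 at chr6:71322788-71337492 and Cd8a at chr6:71373427-71379171, with 35.9 kb between them. The other members are scattered: Cd247 at chr1:165779952-165871153 and Zap70 at chr1:36761798-36782821 (both plus strand), Lck at chr4:129548344-129573641 and Lat at chr7:126363827-126369705 (both minus strand). In the gene models, exons of Cd3e overlap Gm48719 and exons of Cd247 overlap Pou2f1 on the opposite strand. Cd247 also overlaps Gm16565 on the same strand, and Lck and Lat host microRNAs Mir8119 and Mir7058. Whether counting used strand is not given in the sources used here, so reads of these pairs may not be separable.

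**Figure D1:**
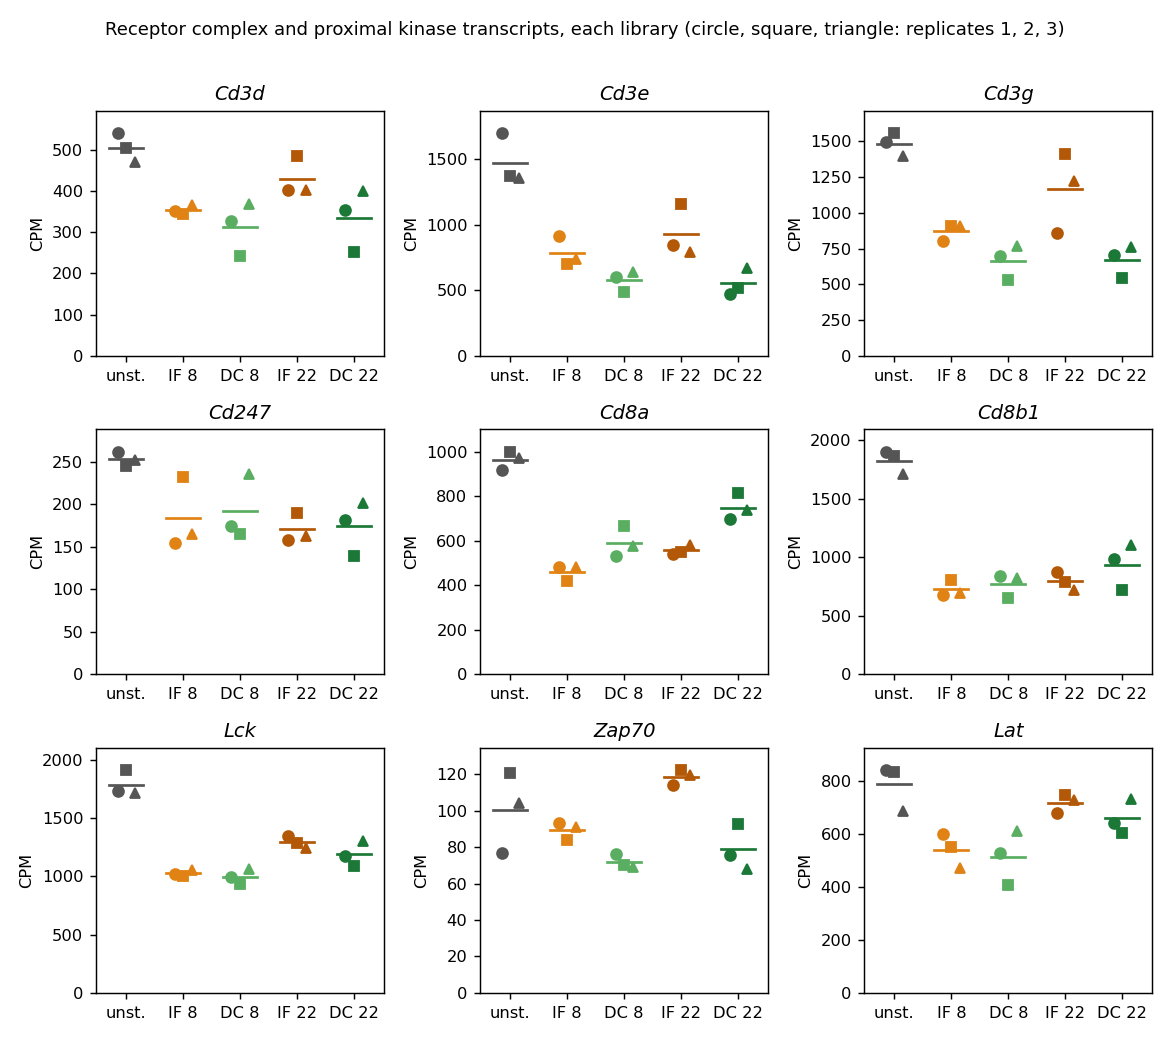
Level of each of the 9 transcripts in every library (y axis, CPM on TMM-scaled totals, from 0, with its own range per gene). Points are the 3 replicates of each group, horizontal lines are group means, and unstimulated cells lie above both DC groups without overlap for every member except Zap70 and Lat, which overlap DC at 22 h.

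Cd3e encodes CD3 epsilon, which pairs with both gamma and delta and is needed for the receptor to assemble. It read 1696, 1368 and 1353 CPM in unstimulated replicates 1 to 3, 914, 699.5 and 735 with IF at 8 h, and 599.6, 485 and 641 with DC at 8 h. At 22 h it read 843, 1159 and 795 with IF and 474, 520.2 and 671 with DC. Every unstimulated library stood above every stimulated one, and every IF library stood above every DC library of the same time. Against unstimulated cells Cd3e fell by 0.91 ± 0.18 (adjusted p = 0.00702) with IF at 8 h and by 1.36 ± 0.19 (adjusted p = 0.000293) with DC at 8 h. At 22 h the fall was by 0.66 ± 0.18 (adjusted p = 0.0424) with IF and by 1.41 ± 0.19 (adjusted p = 0.00032) with DC. The IF 22 h call was lost on leaving out unstimulated replicate 1, 2 or 3 or IF 22 h replicate 1 or 3 (adjusted p = 0.16, 0.0822, 0.0763, 0.0925 and 0.194). Over all its alternatives the adjusted p of that result ran from 0.00901 to 0.194, and it was 0.109 by library size alone and 0.062 with the replicate number as a block. The other 3 falls of Cd3e kept their call under each alternative at the 0.05 threshold.

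Cd3g encodes CD3 gamma, whose tail also carries a motif used in receptor uptake. It read 1496, 1557 and 1400.0 CPM in unstimulated cells, 800.0, 905 and 907 with IF at 8 h, and 696, 534 and 767 with DC at 8 h. The 22 h values were 859, 1413 and 1224 with IF and 704, 544 and 761 with DC. The IF 22 h group was the widest of the 5, and its replicate 2 lay just inside the unstimulated range, which it therefore overlapped. Cd3g fell by 0.77 ± 0.18 (adjusted p = 0.0179) with IF at 8 h, by 1.16 ± 0.19 (adjusted p = 0.00119) with DC at 8 h and by 1.15 ± 0.19 (adjusted p = 0.00115) with DC at 22 h. With IF at 22 h the estimate was -0.35 ± 0.18 (adjusted p = 0.303). The IF 8 h call was lost without unstimulated replicate 2, IF 8 h replicate 1 or IF 8 h replicate 3 (adjusted p = 0.0589, 0.0694 and 0.0538). It was also lost on scaling by library size alone (adjusted p = 0.0585, in a range from 0.000269 to 0.0694 over all alternatives).

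Cd3d encodes CD3 delta, the partner of epsilon in the second CD3 dimer. Its levels ran from 469 to 539.9 CPM in unstimulated cells, 344 to 366 with IF and 242 to 369 with DC at 8 h, and 401 to 484 with IF and 251 to 400.2 with DC at 22 h. Only IF at 22 h overlapped the unstimulated range. It was called lower with DC at 8 h (-0.69 ± 0.18, adjusted p = 0.0298). The estimates elsewhere were -0.51 with IF at 8 h (adjusted p = 0.0997), -0.23 with IF at 22 h (adjusted p = 0.518) and -0.59 with DC at 22 h (adjusted p = 0.0578). The DC 8 h call was lost without unstimulated replicate 1, 2 or 3 or DC 8 h replicate 1 or 2 (adjusted p = 0.0963, 0.0827, 0.0561, 0.0722 and 0.133). It was also lost by library size alone (adjusted p = 0.126, in a range from 0.00463 to 0.133). The DC 22 h estimate passed without DC 22 h replicate 3 (adjusted p = 0.0278), without a low-count filter (adjusted p = 0.0417) and with DESeq2 (adjusted p = 0.0198), in a range from 0.0198 to 0.31. The IF 8 h estimate passed when only its own groups were in the fit (adjusted p = 0.00832, in a range from 0.00832 to 0.329).

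Cd247 encodes the zeta chain, which holds most of the receptor's ITAMs and is added last to the complex. It read 245 to 262 CPM in unstimulated cells, above all 12 stimulated libraries, which ran from 139 in DC 22 h replicate 2 to 235 in DC 8 h replicate 3. The 4 estimates lay between -0.57 and -0.40, and none was called: adjusted p = 0.159 with IF at 8 h, 0.246 with DC at 8 h, 0.0939 with IF at 22 h and 0.103 with DC at 22 h. The IF 22 h value passed with DESeq2 (adjusted p = 0.0379) and with only its own groups in the fit (adjusted p = 0.0184), over alternatives from 0.0184 to 0.432.

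The proportions of the CD3 and zeta transcripts within a library differed between groups for some pairs, and were not tested. The ratio of Cd3e to Cd3d counts within a library, which needs no scaling between libraries, was 2.91 ± 0.22 in unstimulated cells (SD, n = 3). It was 2.22 ± 0.34 with IF and 1.86 ± 0.14 with DC at 8 h, and 2.16 ± 0.22 with IF and 1.70 ± 0.37 with DC at 22 h, and no stimulated library reached the unstimulated range of 2.71 to 3.14. Cd3g to Cd3d was 2.95 ± 0.16 in unstimulated cells, 2.14 ± 0.07 with DC at 8 h and 2.02 ± 0.13 with DC at 22 h. With IF it was 2.46 ± 0.17 at 8 h and 2.70 ± 0.49 at 22 h, where the replicates read 2.14, 2.92 and 3.04. Cd247 to Cd3e moved the other way with DC, from 0.173 ± 0.017 in unstimulated cells to 0.332 ± 0.038 at 8 h and 0.317 ± 0.059 at 22 h. With IF it was 0.242 ± 0.083 and 0.186 ± 0.021, both overlapping the unstimulated libraries. Cd3g to Cd3e was 1.02 ± 0.13 in unstimulated cells and had means of 1.13 to 1.26 in the stimulated groups, all of which overlapped the unstimulated libraries.

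**Figure D2:**
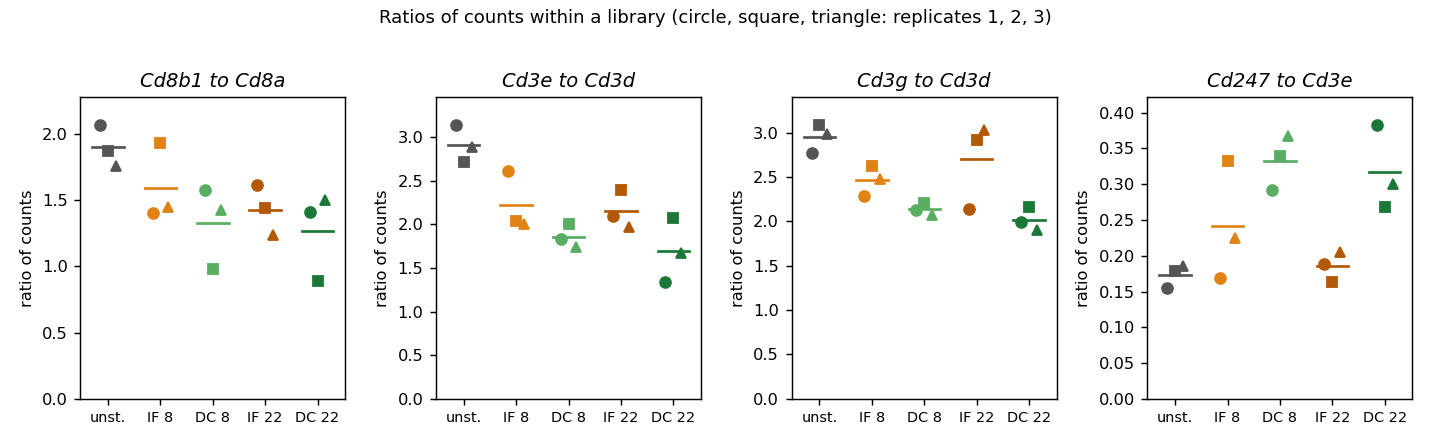
Ratio of counts of 2 members within each library (y axis, no unit, from 0) by group. Points are the 3 replicates and lines the group means, and Cd3e to Cd3d is lower in all 12 stimulated libraries than in the 3 unstimulated ones.

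Cd8a encodes CD8 alpha, which carries the Lck binding site of the co-receptor. It read 919, 999 and 970.1 CPM in unstimulated cells, 483, 419 and 481 with IF at 8 h, and 533, 665 and 577 with DC at 8 h. After 22 h the values were 541, 548 and 582 with IF and 697, 813 and 736 with DC. No stimulated group overlapped the unstimulated one, and the IF libraries lay below the DC libraries at both times. Cd8a fell by 1.06 ± 0.13 (adjusted p = 9.53e-05) with IF at 8 h, by 0.70 ± 0.13 (adjusted p = 0.00313) with DC at 8 h and by 0.79 ± 0.13 (adjusted p = 0.00146) with IF at 22 h. With DC at 22 h the estimate was -0.36 ± 0.13 (adjusted p = 0.0998), which passed with DESeq2 (adjusted p = 0.0288, in a range from 0.0288 to 0.889). Dendritic cells of 1 lineage carry Cd8a themselves, and at 8 h the summed 16 marker genes, Zbtb46, Flt3, Fscn1 and Ccl22 were higher with DC than with IF, while Itgax was lower. Of that lineage's markers, Clec9a read at most 2.095 CPM in any library. The sort kept CD103-negative cells, and dendritic cells of that lineage that carry CD103 would be removed by it. Xcr1, another marker of the lineage, read 9.54 to 45.6 CPM in unstimulated cells, at most 9.38 with IF and 3.35 with DC at 8 h, and at most 2.96 at 22 h. The part of these cells in the Cd8a values was not tested.

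Cd8b1 encodes CD8 beta, which is found in the alpha-beta form of the co-receptor on conventional CD8 T cells. It had the largest fall among the 9 members with IF at both times. It read 1901, 1868 and 1707 CPM in unstimulated cells, 678, 809.9 and 695 with IF at 8 h, and 841, 652 and 820.3 with DC at 8 h. At 22 h it read 872, 788 and 721 with IF and 984, 720.1 and 1108 with DC. The highest stimulated library, DC 22 h replicate 3, lay far below the lowest unstimulated one. Cd8b1 fell by 1.33 ± 0.16 (adjusted p = 9.69e-05) with IF and by 1.24 ± 0.16 (adjusted p = 0.000184) with DC at 8 h. At 22 h it fell by 1.20 ± 0.16 (adjusted p = 0.00029) with IF and by 0.96 ± 0.16 (adjusted p = 0.00152) with DC.

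The ratio of Cd8b1 to Cd8a counts, also not tested, was 1.90 ± 0.16 in unstimulated cells, 1.59 ± 0.29 with IF and 1.33 ± 0.31 with DC at 8 h, and 1.43 ± 0.19 with IF and 1.27 ± 0.33 with DC at 22 h. IF 8 h replicate 2, at 1.93, lay inside the unstimulated range, and the other 11 stimulated libraries lay below it. Replicate 2 of both DC groups stood lowest, at 0.981 at 8 h and 0.886 at 22 h, where the other 13 libraries read 1.24 or more. In both of those libraries Cd8a was the highest of its group, and Cd3d, Cd3g, Cd247, Cd8b1, Lck and Lat were the lowest. Over all 15 libraries, deviations from the group means of Cd8a and Cd8b1 had a Pearson r of -0.81, while those of Cd3d and Cd3g had 0.81 and those of Cd3d and Cd8b1 0.79. These r values are descriptions over libraries that share scaling, and what set replicate 2 apart was not tested.

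Lck encodes the kinase that phosphorylates the ITAMs and Zap70, and its coefficient of variation within groups was 2.45% to 9.35%. It read 1731, 1912 and 1717 CPM in unstimulated cells, 1022, 1003 and 1052 with IF at 8 h, and 994, 938 and 1064 with DC at 8 h. After 22 h it stood at 1346, 1287 and 1247 with IF and 1173, 1086 and 1307 with DC. All 6 libraries of 22 h lay above all 6 libraries of 8 h and below all unstimulated ones. Lck fell by 0.80 ± 0.12 (adjusted p = 0.000482) with IF and by 0.84 ± 0.12 (adjusted p = 0.000333) with DC at 8 h. At 22 h it fell by 0.47 ± 0.12 (adjusted p = 0.0254) with IF and by 0.59 ± 0.12 (adjusted p = 0.00507) with DC. The difference between 22 h and 8 h was not called for Lck: 0.33 ± 0.12 with IF (adjusted p = 0.185) and 0.25 ± 0.12 with DC (adjusted p = 0.538). The IF 22 h call was lost without unstimulated replicate 1, 2 or 3 or IF 22 h replicate 2 or 3 (adjusted p = 0.0575, 0.112, 0.0597, 0.0887 and 0.12). It was also lost by library size alone (adjusted p = 0.181) and without a low-count filter (adjusted p = 0.121), in a range from 0.000293 to 0.417. The DC 22 h call was lost by library size alone (adjusted p = 0.13, in a range from 2.8e-06 to 0.13).

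Zap70 encodes the kinase that docks on phosphorylated ITAMs and was the least counted member. It read 76.9, 121 and 105 CPM in unstimulated cells, 93.1, 83.9 and 90.8 with IF at 8 h, and 76.2, 70.2 and 68.9 with DC at 8 h. The levels at 22 h were 114, 122 and 119.6 with IF and 75.8, 92.7 and 68.1 with DC. The wide unstimulated group, with replicate 1 lowest, overlapped 3 of the 4 stimulated groups and lay just above DC at 8 h. No comparison with unstimulated cells was called for Zap70: -0.17 (adjusted p = 0.61) with IF and -0.49 (adjusted p = 0.111) with DC at 8 h, and 0.24 (adjusted p = 0.48) with IF and -0.35 (adjusted p = 0.249) with DC at 22 h. The ratio of Lck to Zap70 counts was 18.3 ± 3.7 in unstimulated cells and lay below its 15.9 to 22.5 range in all 6 IF libraries, at 10.4 to 11.95. With DC it was 14.0 ± 1.3 at 8 h and 15.5 ± 3.7 at 22 h, where 1 library fell inside the unstimulated range.

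Lat encodes the membrane scaffold that Zap70 phosphorylates and on which downstream enzymes gather. It ran from 687 to 840.4 CPM in unstimulated cells, 470.2 to 599.6 with IF and 407 to 610.4 with DC at 8 h, and 678 to 747 with IF and 605 to 730.4 with DC at 22 h. Both 8 h groups lay below the unstimulated range, and both 22 h groups overlapped it. Lat fell by 0.54 ± 0.16 (adjusted p = 0.0476) with IF and by 0.61 ± 0.16 (adjusted p = 0.0273) with DC at 8 h. At 22 h the estimates were -0.14 (adjusted p = 0.692) with IF and -0.26 (adjusted p = 0.356) with DC. The IF 8 h call was lost without each of the 6 libraries compared: adjusted p = 0.132, 0.139 and 0.0527 without unstimulated replicate 1, 2 or 3, and 0.0642, 0.0983 and 0.179 without IF 8 h replicate 1, 2 or 3. It was also lost by library size alone (adjusted p = 0.216), without a low-count filter (adjusted p = 0.0524) and with the replicate number as a block (adjusted p = 0.064), in a range from 0.0122 to 0.216. The DC 8 h call was lost without unstimulated replicate 1 or 2 or DC 8 h replicate 1 or 2 (adjusted p = 0.0954, 0.103, 0.0742 and 0.124) and by library size alone (adjusted p = 0.154), in a range from 0.0035 to 0.154.

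**Figure D3:**
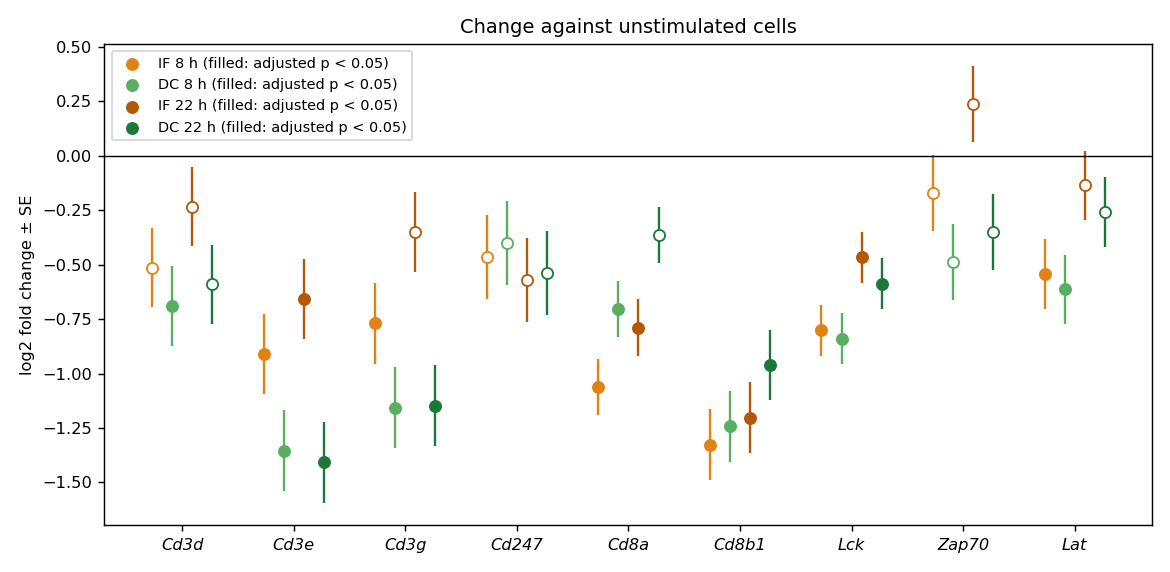
Change of each member against unstimulated cells (y axis, log2 fold change from edgeR, bars ± SE) for the 4 stimulated groups. Filled points have an adjusted p below 0.05, and all filled points lie below 0.

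Counted over the members, 6 of 9 were called lower with IF at 8 h, 7 of 9 with DC at 8 h, and 4 of 9 with either stimulus at 22 h. Over all 10831 genes tested, the share called lower was 4.72%, 4.07%, 3.44% and 4.35% in the order IF 8 h, DC 8 h, IF 22 h and DC 22 h. No member was called higher, beside 3.04%, 2.75%, 2.63% and 3.41% of all genes. Among the 2683 genes with a mean of at least 50 CPM, where all 9 members belong, the shares called lower were 9.80%, 9.21%, 6.41% and 10.9%. The members' median change was -0.77, -0.70, -0.47 and -0.59 on the log2 scale, beside 0.02, 0.04, 0.01 and 0.04 for all genes. Groups did not overlap, with the stimulated one lower, for 8 members with IF at 8 h (16.4% of all genes), 9 with DC at 8 h (15.2%), 5 with IF at 22 h (14.7%) and 7 with DC at 22 h (14.2%). In the test of any difference among the 5 groups, 7 of 9 were called (11.8% of all genes), without Cd3d (adjusted p = 0.0606) and Cd247 (adjusted p = 0.182). Zap70 (adjusted p = 0.0466) and Lat (adjusted p = 0.0494) were called by a narrow margin and were lost in 18 and 15 of 24 alternatives. Leaving out 1 library ended the call of Zap70 in 13 of 15 cases, all but unstimulated replicate 1 and DC 22 h replicate 2, with adjusted p = 0.0575 to 0.131. It ended that of Lat in 11 cases, all but DC 8 h replicate 3, IF 22 h replicate 1 and DC 22 h replicates 2 and 3, with adjusted p = 0.0549 to 0.122.

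These changes are relative to TMM scaling, which sets most genes near no change. Scaling by library size alone moved the median of all genes against unstimulated cells to 0.26 with IF and 0.30 with DC at 8 h, and to 0.22 with IF and 0.37 with DC at 22 h. The share of called genes that were higher rose with it from 39.2% to 76.3%, 40.3% to 79.6%, 43.3% to 74.1% and 43.9% to 85.4%, in the same order. Each of the 21 falls called above kept a negative estimate under every alternative, library size alone included.

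Without both IF 22 h libraries low in mitochondrial ribosomal RNA, 1 IF 22 h library remained, and none of the 4 members called there passed. Cd8b1 was then at -1.07 (adjusted p = 0.0559), Cd8a at -0.83 (adjusted p = 0.0698), Cd3e at -0.80 (adjusted p = 0.189) and Lck at -0.41 (adjusted p = 0.417). The lone library is assumed in this fit to vary like the other groups.

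IF and DC, the comparison of a synthetic with a cellular stimulus, differed at 22 h in Cd3e and Cd3g. Cd3e was 0.75 ± 0.18 higher with IF (adjusted p = 0.0392), at 932 ± 198 CPM against 555 ± 103, and Cd3g was 0.80 ± 0.18 higher (adjusted p = 0.0292), at 1165 ± 281 CPM against 669.7 ± 113. They were 2 of 9 members, where 1.23% of all genes were called higher with IF and 2.43% in either direction. The count of 263 genes became 759 when IF 22 h replicate 1 was left out. It became 99 and 90 in the fits lacking IF 22 h replicate 2 and IF 22 h replicate 3, and 119 in the one lacking DC 22 h replicate 1. For Cd3e and Cd3g all 3 IF libraries lay above all 3 DC libraries, as they also did for Cd3d (0.36, adjusted p = 0.368) and Zap70 (0.59 ± 0.17, adjusted p = 0.0921). That made 4 members higher without overlap (10.7% of all genes) and 1 lower, Cd8a (-0.43 ± 0.13, adjusted p = 0.102; 9.11% of all genes). Cd247 (-0.03), Cd8b1 (-0.24), Lck (0.12) and Lat (0.12) had overlapping groups and adjusted p-values from 0.528 to 0.964. Of the 16 dendritic cell genes, Fscn1 and Ccl22, named after their values were seen, were higher with DC than with IF at 22 h. Itgax, a defining marker, was lower there with DC, at 2.05 to 7.69 CPM against 13.98 to 31.8 with IF. The sums of the 16 genes overlapped, at 466.7 to 640 CPM with DC and 376.8 to 631.2 with IF. The part of dendritic cell transcripts in these differences was not tested.

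Both calls at 22 h were lost on leaving out any of 4 single libraries, while the estimates stayed positive. Without IF 22 h replicate 2 or 3 or DC 22 h replicate 1 or 2, Cd3e was at 0.56, 0.85, 0.64 and 0.69 on the log2 scale (adjusted p = 0.266, 0.0631, 0.174 and 0.0896). Without the same 4 libraries Cd3g was at 0.64, 0.76, 0.84 and 0.66 (adjusted p = 0.187, 0.128, 0.0794 and 0.0782). In a fit of the 2 groups alone Cd3e was at 0.72 (adjusted p = 0.209) and Cd3g at 0.77 (adjusted p = 0.201). Cd3e was also lost by library size alone (0.62, adjusted p = 0.0677) and with the replicate block (0.75, adjusted p = 0.0584). Without both IF 22 h libraries low in mitochondrial ribosomal RNA, Cd3e was at 0.60 (adjusted p = 0.767) and Cd3g at 0.36 (adjusted p = 0.975). Over all alternatives the adjusted p ran from 0.00309 to 0.767 for Cd3e and from 0.00105 to 0.975 for Cd3g. The same 2 libraries hold the high Cd3g values, 1413 and 1224 CPM, against 859 in IF 22 h replicate 1, and the part of the low ribosomal RNA in this was not tested. Cd8a passed with DESeq2 (adjusted p = 0.0096) and by library size alone (adjusted p = 0.0299), in a range from 0.0096 to 0.85. Zap70 passed with DESeq2 (adjusted p = 0.0302) and without DC 22 h replicate 2 (adjusted p = 0.0488), in a range from 0.0302 to 0.949.

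**Figure D4:**
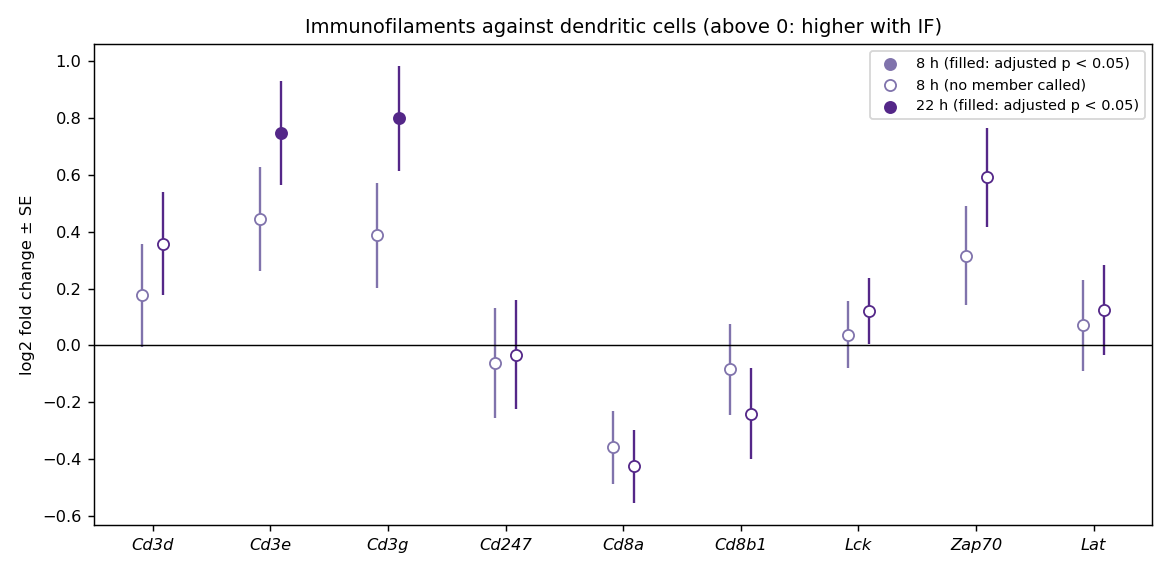
Difference between IF and DC stimulation for each member at 8 h and 22 h (y axis, log2 fold change, bars ± SE, above 0 is higher with IF). Filled points have an adjusted p below 0.05: Cd3e and Cd3g at 22 h.

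At 8 h no member was called between IF and DC by edgeR, where 0.665% of all genes were, and DESeq2 called 0 members as well. The smallest adjusted p was that of Cd8a, 0.366, and 2 members and 896 genes had an unadjusted p below 0.05. Cd3e (0.44), Cd3g (0.39) and Zap70 (0.32) were higher with IF without overlap (5.80% of all genes), and Cd8a (-0.36) was lower without overlap (7.70%). The estimates of these 4 thus had the same sign at both times, but the change of the IF to DC difference from 8 h to 22 h was called for 0 members and 0 genes of the series by edgeR, with 0 members and 858 genes at an unadjusted p below 0.05. DESeq2 called 40 genes there and 0 members. The count of genes called by edgeR was 279 without IF 22 h replicate 1 and 155 without the low-count filter, again with 0 members. That change was 0.41 ± 0.26 for Cd3g and 0.30 ± 0.26 for Cd3e on the log2 scale.

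Between 8 h and 22 h edgeR and DESeq2 each called 0 members with IF (1.12% of all genes by edgeR) and 0 with DC (0.480%). With IF, 5 members were higher at 22 h without overlap (12.1% of all genes): Cd3d (0.28), Cd8a (0.27), Lck (0.33), Zap70 (0.41) and Lat (0.41). With DC, Cd8a (0.34) and Lck (0.25) were higher without overlap (6.88% of all genes), while Cd3e (-0.05) and Cd3g (0.01) were near 0. An unadjusted p below 0.05 was reached by 5 members with IF and 3 with DC, beside 1622 and 978 of all genes.

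Ordered by group mean, the members followed different sequences. Cd3d, Cd3e and Cd3g had unstimulated cells highest, IF at 22 h next and IF at 8 h after it, and both DC groups lowest, which overlapped each other. Cd8a and Cd8b1 had unstimulated cells highest and DC at 22 h next, and IF at 8 h lowest. For Cd8a the neighbours DC 8 h and IF 22 h overlapped, and for Cd8b1 all 4 stimulated groups overlapped with their neighbour. Lck and Lat had unstimulated cells, then IF and DC at 22 h, then IF and DC at 8 h, with the stimuli overlapping at each time. Zap70 had IF at 22 h highest and DC at 8 h lowest, with every neighbouring pair overlapping. Cd247 had unstimulated cells apart from the rest and 4 overlapping stimulated groups.

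The genes most like each member were sought among 2674 others with a mean of at least 50 CPM, by Pearson r of log2 CPM over the 15 libraries. Because the groups differ, these r values cover differences between groups as well as between libraries. Cd3g was most like Rpl32 and Tmsb10 (both r = 0.98), Cd3e like Fam117a (0.97) and Tmsb10 (0.93), and Cd3d like Rgs10 (0.95) and Hcst (0.94). Cd8b1 was most like Sidt1 (0.96) and Rasgrp2 (0.95), Cd8a like Ctsw and Dtx1 (both 0.92), and Cd247 like Tsc22d3 (0.91) and Sec11c (0.90). Lck and Lat shared Itgb7 (0.95 and 0.90), beside Lgals1 (0.94) and Oxct1 (0.92). Zap70 had the weakest likeness, to Hsd17b10 (0.87) and Tecr (0.84).

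Among other receptor chains and surface partners, 6 of 7 genes in the tables were tested, and the receptor constant chains Trac, Trbc1 and Trbc2 were not analysed here. With IF, 1 rose and 1 fell at each time, while 3 fell with DC at 8 h and 4 at 22 h. In the same 4 comparisons 2.63% to 3.41% of all genes were called higher and 3.44% to 4.72% lower. The genes were Cd28, the co-stimulatory receptor, Cd2, an adhesion receptor, and Cd5 and Cd6, inhibitory co-receptors. Cd2 fell in every comparison with unstimulated cells: by 0.82 (adjusted p = 0.0037) with IF and by 1.41 (adjusted p = 4.43e-05) with DC at 8 h, and by 1.15 (adjusted p = 0.00027) and by 1.85 (adjusted p = 2.82e-06) at 22 h. Cd28 rose by 0.93 (adjusted p = 0.00766) with IF at 8 h and by 1.52 (adjusted p = 0.000164) at 22 h. With DC at 22 h Cd28 fell by 0.86 (adjusted p = 0.0109), a value outside the naming rule and chosen after it was seen. It was lost without unstimulated replicate 3 (adjusted p = 0.0607), by library size alone (adjusted p = 0.068) and with only its own groups in the fit, in a range from 0.000426 to 0.068. Between stimuli Cd28 was higher with IF by 1.44 (adjusted p = 0.00123) at 8 h and by 2.38 (adjusted p = 1.4e-05) at 22 h. Cd5 fell with DC by 0.89 (adjusted p = 0.00334) at 8 h and by 1.07 (adjusted p = 0.000943) at 22 h, and Cd6 by 0.76 (adjusted p = 0.0057) and by 0.92 (adjusted p = 0.00137). With IF both had estimates from -0.29 to 0.08 and were not called.

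Of 25 other kinases and adaptors of the proximal cascade, none rose, and 4 fell with IF and 4 with DC at 8 h, 2 with IF and 5 with DC at 22 h. Beside the shares of all genes given above, 0 higher of 25 is near the background. Their medians were -0.33, -0.33, -0.28 and -0.46 on the log2 scale. At 8 h Coro1a, a regulator of actin, fell by 0.75 (adjusted p = 0.00802) with IF and by 0.73 (adjusted p = 0.00848) with DC, the latter at 0.0523 by library size alone. Fyn, which like Lck is a Src family kinase, fell by 0.75 with DC at 8 h (adjusted p = 0.00247). At 22 h the calls with the smallest p with DC were the adaptor Skap1 (-0.84, adjusted p = 0.0142), Coro1a (-0.61, adjusted p = 0.0215) and the Ras activator Rasgrp1 (-0.72, adjusted p = 0.0337). Each of these 3 calls was lost on leaving out 2 to 5 of the 6 libraries compared. Of the 25, Fyn alone was called between stimuli, higher with IF at 22 h (0.52, adjusted p = 0.0475), and was lost in 12 of 16 alternatives, 5 of them with 1 library left out (adjusted p = 0.000228 to 0.791).

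The 19 tested brakes on proximal signalling moved in both directions, with 3 higher and 3 lower with IF at 8 h, 2 and 4 with DC at 8 h, 3 and 2 with IF at 22 h, and 3 and 4 with DC at 22 h. Over all genes, 2.63% to 3.41% were called higher and 3.44% to 4.72% lower in these comparisons. Sit1, a transmembrane adaptor, fell by 3.72 (adjusted p = 9.48e-06) with IF at 8 h, from 36.1 to 59.6 CPM in unstimulated cells to 2.41 to 4.64 CPM. It fell by 2.42 (adjusted p = 0.000201) with DC at 8 h, by 2.12 (adjusted p = 0.00063) with IF at 22 h and by 1.65 (adjusted p = 0.00348) with DC at 22 h. Cblb, a ubiquitin ligase, rose by 1.71 (adjusted p = 5.34e-05) with IF and by 1.17 (adjusted p = 0.00139) with DC at 8 h, and by 1.70 (adjusted p = 6.92e-05) with IF at 22 h. Pag1, which anchors the Lck inhibitor Csk at the membrane, fell with DC at 8 h (-1.58, adjusted p = 0.0013), and Ptpn22, a phosphatase acting on Lck and Zap70, rose with IF at 8 h (0.72, adjusted p = 0.0073) and at 22 h (0.93, adjusted p = 0.00105). With DC at 22 h Sla, an adaptor that lowers receptor levels, fell (-0.99, adjusted p = 0.000981). Between stimuli Sla was higher with IF at 8 h (1.22, adjusted p = 0.00101) and at 22 h (1.05, adjusted p = 0.00115), and Ptpn22 was higher at 22 h (0.90, adjusted p = 0.00315).

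Further calls of Pag1, Sla and Cblb lay outside the naming rule and were chosen after their values were seen. Pag1 was also called lower with IF at 8 h (-1.15, adjusted p = 0.0135) and at 22 h (-1.30, adjusted p = 0.00535) and with DC at 22 h (-0.98, adjusted p = 0.0242), and thus fell in all 4 comparisons with unstimulated cells. Its IF 8 h call was lost without IF 8 h replicate 1 (-0.98, adjusted p = 0.066) or unstimulated replicate 3 (-1.03, adjusted p = 0.0569), in a range from 0.00104 to 0.066. Its DC 22 h call was lost without DC 22 h replicate 1 or 2 or unstimulated replicate 1 or 3 (adjusted p = 0.0502, 0.106, 0.0727 and 0.11). It was also lost by library size alone (adjusted p = 0.088) and with only its own groups in the fit (adjusted p = 0.061), in a range from 0.00385 to 0.11. Sla was also lower with DC at 8 h (-0.75, adjusted p = 0.00692), a call lost by library size alone (-0.48, adjusted p = 0.0585) in a range from 2.41e-05 to 0.0585. Cblb was also higher with DC at 22 h (0.83, adjusted p = 0.0137), so that it rose in all 4 comparisons. That call was lost without DC 22 h replicate 1 (adjusted p = 0.0713) or unstimulated replicate 1 or 2 (adjusted p = 0.0553 and 0.0578). It was also lost with only its own groups in the fit (adjusted p = 0.0577), in a range from 0.000925 to 0.0713. Between stimuli at 22 h Cblb was higher with IF (0.87, adjusted p = 0.0214), and this was lost without IF 22 h replicate 2 or 3 or DC 22 h replicate 3 (adjusted p = 0.0919, 0.126 and 0.0718), in a range from 0.000783 to 0.844.

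Without both IF 22 h libraries low in mitochondrial ribosomal RNA, 1 IF 22 h library was left in the fit and several calls of these brakes were lost, with the direction kept. Against unstimulated cells Sit1 was then at -1.92 (adjusted p = 0.105), Pag1 at -1.50 (adjusted p = 0.115) and Ptpn22 at 0.88 (adjusted p = 0.0638). Between stimuli at 22 h Sla was at 0.97 (adjusted p = 0.147), Ptpn22 at 0.84 (adjusted p = 0.187) and Cblb at 0.64 (adjusted p = 0.844).

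**Figure D5:**
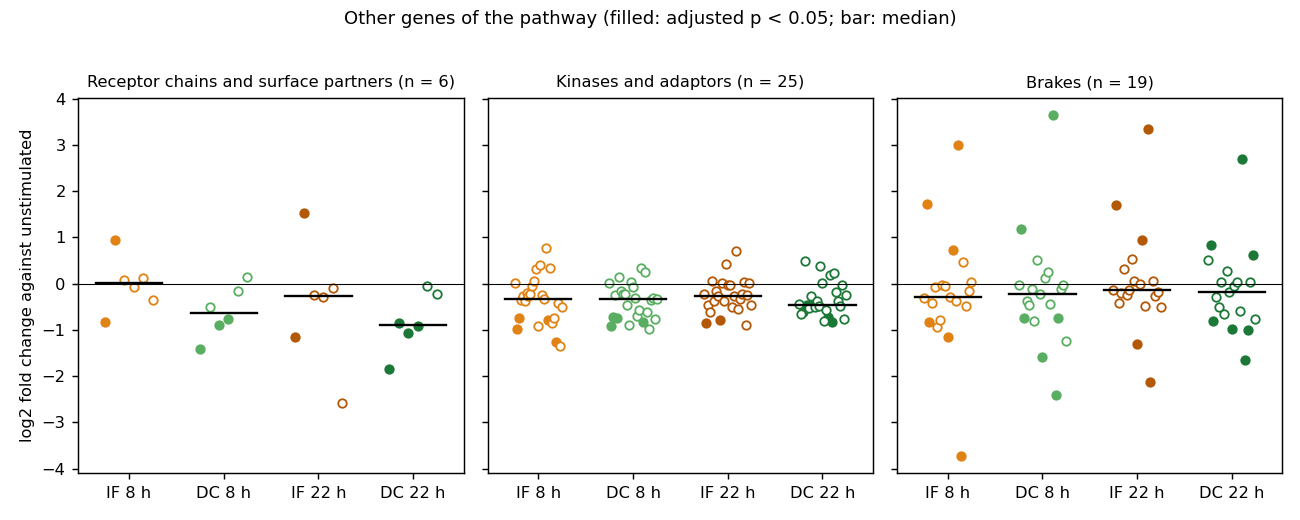
Log2 fold change against unstimulated cells (y axis) of the other genes of the pathway in 3 lists, for the 4 stimulated groups. Points are genes (filled where the adjusted p is below 0.05) and bars are medians, and the kinases and adaptors have filled points below 0 only.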

How the data were processed

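Libraries were made with an adapted CEL-seq protocol, which counts 3′ ends, and sequenced as read pairs, per the labels' protocols. The authors deposited raw counts per gene for each of the 15 libraries. BWA and the build mm10 are named in the submitters' processing notes; the counting program, the use of molecular identifiers and strand are not given in the sources used here, so amplified reads need not be independent molecules. Totals were 2892874 to 19806730 counts. Genes were filtered with edgeR 4.0.16 (filterByExpr, minimum count 10, total 15), leaving 10831 of 17493, and 370 genes had no count in any library. A quasi-likelihood model with the 5 groups as means was fitted to all 15 libraries in R 4.3.3, with TMM scaling and Benjamini-Hochberg adjustment over all tested genes at 0.05. Log2 fold changes used a prior count of 0.125, and log2 CPM for likeness a prior count of 2. Alternatives were other scalings, filters and tools (DESeq2 1.42.0), only the groups compared, a replicate block, a threshold of 0.01 and each library left out. All 9 members are named. From each list of other pathway genes (receptor partners, kinases and adaptors, brakes), at most the 3 called genes with the smallest p per comparison are named, and some of these are not reported here. For likeness, the 2 genes with the highest r per member are named. Members, lists and markers (dendritic, B, NK, CD4 and CD8 T cells) were chosen with earlier results of these data known. Promoters, positions and spans are from RefSeq (GRCm38.p6), where promoters of 8 of 9 members matched by symbol, and exon overlaps are from GENCODE vM21.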

Additional observations from a re-analysis of the deposited data

Results flagged for a closer look

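At 22 h 2 of the 9 members differed between the stimuli by a test of the difference itself. Cd3e was higher with IF than with DC by 0.75 on the log2 scale (edgeR, adjusted p = 0.0392), and Cd3g by 0.80 (edgeR, adjusted p = 0.0292). Both were lost without IF 22 h replicate 2 (adjusted p = 0.266 for Cd3e and 0.187 for Cd3g) and without 3 other single libraries named in the results, in ranges over all alternatives from 0.00309 to 0.767 and from 0.00105 to 0.975. IL-2 is named only for the IF groups, and its part in the difference cannot be told apart from that of the carrier.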

How the results depend on the processing

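None of the 90 member results changed direction while called, though those of the test of any difference among the 5 groups have no direction. Of the 30 called results, 17 kept their call under each alternative run. With 1 library left out, the count of members called against unstimulated cells ran from 4 to 5 for IF at 8 h (6 with all libraries), from 5 to 7 for DC at 8 h (7) and from 4 to 5 for DC at 22 h (4). Calls over all genes then ran from 419 to 573 for IF at 8 h (840 with all libraries) and from 404 to 665 for DC at 8 h (739). At 22 h they ran from 454 to 984 for DC (840) and from 283 to 947 for IF (658). For IF at 22 h the count of 4 ranged from 2 to 3 with 1 library left out, and was 2 at a threshold of 0.01, 2 by library size alone and 0 without both IF 22 h libraries low in mitochondrial ribosomal RNA, where 251, 838 and 99 genes were called over all genes, against 658 with the settings of the report. With 1 library left out, 90 to 759 of all genes were called for IF against DC at 22 h. The count of 2 members there ranged from 0 to 2. It was 0 at a threshold of 0.01, 1 with the replicate block, 0 with only the groups compared, 0 without both of those libraries and 4 with DESeq2. In the same order 89, 245, 70, 8 and 563 of all genes were called, against 263, so the 4 members with DESeq2 came with more calls over all genes. The replicate number was not taken to pair the libraries, because the labels do not say what it stands for. Correlations between libraries cannot settle whether they are paired. Over 30 pairs with the same number, deviations from group means had r from -0.189 to 0.399, and 4 pairs were above 0.1. Of 15 libraries, 9 correlated best with their own number, a hint from the data that some numbers may share a source. With the replicate block the counts were otherwise 5 with IF and 7 with DC at 8 h, 3 with IF and 4 with DC at 22 h, and 5 for any difference. In the same order the block gave 767, 714, 638, 785 and 1171 calls over all genes, against 840, 739, 658, 840 and 1283. A stricter threshold lowers a count by construction, and the cause of the other changes was not tested.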
